A study of Mus musculus with 22 samples.

Results

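Wnt ligands are secreted, lipid-modified glycoproteins through which cells signal to their neighbours, and 10 of their genes are described here across 10 groups of mouse stem cell cultures: Wnt3, Wnt3a, Wnt4, Wnt5a, Wnt5b, Wnt6, Wnt8a, Wnt9a, Wnt10a and Wnt11. They were chosen by name, with earlier results of these data known, from 55055 genes found in all the tables. A further 9 Wnt ligand genes (Wnt1, Wnt2, Wnt2b, Wnt7a, Wnt7b, Wnt8b, Wnt9b, Wnt10b and Wnt16) serve as the rest of the family. RNA was sequenced in 22 libraries of wild-type cells and of cells labelled Hox-/-, which the series describes as without any Hox function.

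Mouse embryonic stem (mES) cells of both genotypes, 2 libraries each, were kept in LIF (100 ng/ml) with CHIR99021, which inhibits GSK-3 (3 µM), and PD0325901, which inhibits MEK (1 µM). Endoderm cultures of both genotypes, 3 libraries each, were collected at 120 h after Activin A (100 ng/ml) and CHIR99021 (3 µM) had been added at the 24 h and 72 h time points. Gastruloids are stem cell aggregates that elongate and pattern themselves much as an early embryo does. They were sampled at 2 times (96 h and 120 h), 2 libraries to a group: Activin A gastruloids of wild-type and Hox-/- cells, and Chiron gastruloids of wild-type cells. Gastruloid doses are not in the labels, which call the endoderm and gastruloid cultures mixed cells. Every endoderm culture had therefore received a GSK-3 inhibitor, which activates the canonical Wnt pathway downstream of the ligands, and so had the mES cells. No label numbers the clones, which means that an effect of genotype and one of the clone cannot be told apart, and the labels do not say that replicates were separate cultures, so p-values measure only the spread between these libraries.

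Canonical Wnt ligands, among them Wnt3, Wnt3a and Wnt8a, bind Frizzled and LRP receptors and stabilise β-catenin, which enters the nucleus and acts with TCF/LEF factors on target genes. In the mouse embryo Wnt3 is required to form the primitive streak, and Wnt3a maintains the caudal progenitors from which the trunk and tail extend. Wnt5a, Wnt5b and Wnt11 act mainly through pathways that do not need β-catenin and that polarise and move cells, and Wnt4, Wnt6, Wnt9a and Wnt10a are best known from organ formation, including kidney, epithelium, joint and skin.

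Library totals ran from 9.11 M to 28.8 M counts (M, mega), and a count of 3, used as the floor, was worth 0.104 to 0.329 counts-per-million (CPM, a count scaled by its library's total). The 96 h gastruloid libraries held 15 M to 28.8 M counts and the 120 h libraries 9.11 M to 11.9 M, so time and depth go together. Over 39 Hox genes, wild-type mES cells had a summed level of 33.1 ± 3.77 CPM (SD, n = 2) and Hox-/- ones 0.896 ± 0.634 CPM, and in endoderm the sums were 859 ± 26.3 and 25.8 ± 3.1 CPM (n = 3). In Activin A gastruloids they were 643 ± 25.2 (wild type) and 103 ± 1.02 CPM (Hox-/-) at 96 h, then 1179 ± 16.5 and 66.6 ± 4.03 CPM at 120 h (n = 2). None of 7 definitive endoderm markers was at 0 in any group, and their summed level was lower in Hox-/- than in wild-type libraries in the 3 settings outside mES cells: 170 to 185 against 357 to 375 CPM in endoderm, 168 to 170 against 527 to 591 CPM in Activin A gastruloids at 96 h, and 151 to 157 against 532 to 543 CPM at 120 h. The 6 presomitic and somitic mesoderm markers summed to 811 to 821 CPM in Hox-/- against 402 to 409 CPM in wild-type Activin A gastruloids at 120 h. The 7 pluripotency markers summed to 249.4 to 262 in Hox-/- against 806 to 930 CPM in wild-type endoderm (7 of 7 called lower), to 1116 to 1120.5 against 1612 to 1626 CPM at 96 h and to 26.1 to 28.5 against 85.5 to 86.2 CPM at 120 h. The 5 neural markers, of which Olig2 was at 0 in endoderm, summed to 21.0 to 23.9 in Hox-/- against 51.1 to 64.4 CPM in endoderm, to 55.9 to 56.2 against 32.2 to 34.7 CPM at 96 h, and to 23.0 to 23.1 against 91.2 to 93.9 CPM at 120 h (5 of 5 called lower). The presomitic and somitic sum was lower in Hox-/- endoderm (37.7 to 39.7 against 57.5 to 64.4 CPM) and higher at 96 h (152 to 168 against 131 to 138 CPM). By gene, 1 was called higher and 3 lower of 5 tested in endoderm. At 96 h 1 was called higher and 3 lower of 6, so that sum ran against most of the calls, while at 120 h all 6 were higher. Of 2 neural markers tested in endoderm, 1 was called higher and 1 lower. The 6 primitive streak and caudal markers summed to 666 to 695 in Hox-/- against 599 to 657 CPM in endoderm (3 called higher, 2 lower). In Activin A gastruloids their sums were 3545 to 3583 against 2966 to 3074 CPM at 96 h and 470 to 482 against 622.8 to 623.3 CPM at 120 h. At each of these times 3 were called higher and 3 lower. In mES cells the streak and caudal sum was 20.47 to 20.5 in Hox-/- against 35.4 to 38.6 CPM in wild type, with 4 of 4 tested called lower. The pluripotency sum there was 5821 to 5851 against 5987 to 6017 CPM, with 1 of 7 called higher and 3 lower. These marker levels moved with genotype alongside the ligands, and their part in the ligand differences was not tested. In bulk RNA, fewer cells that express a ligand and less of its RNA per cell cannot be told apart.

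In the genome (mouse build GRCm38, also called mm10), 4 of the 10 genes lie in pairs with each other, and Wnt3 lies 24328 bases from Wnt9b, one of the 9 further ligands. Wnt3a (ENSMUSG00000009900, chr11:59248033-59290752, minus strand) and Wnt9a (ENSMUSG00000000126, chr11:59306928-59333552, plus strand) point away from each other with 16175 bases between their starts. Wnt6 (ENSMUSG00000033227, chr1:74771892-74785322, plus strand) is followed on the same strand, after 6193 bases, by Wnt10a (ENSMUSG00000026167, chr1:74791516-74804179). The others are Wnt3 (ENSMUSG00000000125, chr11:103774150-103817957, plus), Wnt4 (ENSMUSG00000036856, chr4:137277489-137299726, plus), Wnt5a (ENSMUSG00000021994, chr14:28504750-28527448, plus), Wnt5b (ENSMUSG00000030170, chr6:119432531-119544347, minus) and Wnt11 (ENSMUSG00000015957, chr7:98835112-98855195, plus). None of these adjoins a Hox cluster: the nearest, Wnt3, lies 7.41 Mb from the Hox genes of chromosome 11, Wnt3a and Wnt9a 36.9 Mb, and Wnt5b 67.2 Mb from those of chromosome 6. Antisense gene Gm2670 shares 358 of 7823 exon bases with Wnt5a and never exceeded 0.246 CPM, and the pseudogene Gm8398, which shares 364 of 4137 exon bases with Wnt11, was at 0 counts in every library. Protein-coding Fbxl14 overlaps Wnt5b on the opposite strand with 0 shared exon bases and reached 239 CPM. Antisense gene Gm29539 overlaps Wnt6, also with 0 shared exon bases, and never exceeded 0.341 CPM.

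RefSeq promoters were matched for 7 of the 10 genes (not for Wnt5a, Wnt8a and Wnt10a), and 4 are printed because they belong to the neighbour pair Wnt3a and Wnt9a, to Wnt6, and to Wnt11, the one gene among them with a TCF/LEF letter match at its first start. Each is the 250 bases upstream of the RefSeq start on GRCm38.p6, 5′ to 3′ on the gene's strand. Capitals mark matches on either strand to the letters of 3 motifs. The GC box was searched as GGGCGG. The TATA box was searched as TATAAA. The TCF/LEF motif, bound by the nuclear partners of β-catenin, was searched as CTTTGAT and with the 3 other endings that its last letters allow. Among those endings the first was spelled CTTTGAA in full. Another of the endings was spelled CTTTGTT in full. The last of the endings was spelled CTTTGTA in full. The motifs and the promoters to print were chosen after the matches had been seen.
Wnt3a, chr11:59290752-59291001, minus strand: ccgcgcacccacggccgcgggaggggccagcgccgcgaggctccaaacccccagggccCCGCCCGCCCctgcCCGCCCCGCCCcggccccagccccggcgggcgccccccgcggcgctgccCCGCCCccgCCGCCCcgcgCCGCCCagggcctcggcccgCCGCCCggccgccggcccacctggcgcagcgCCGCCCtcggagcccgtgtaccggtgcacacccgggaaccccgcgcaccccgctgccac
Wnt9a, chr11:59306680-59306929, plus strand: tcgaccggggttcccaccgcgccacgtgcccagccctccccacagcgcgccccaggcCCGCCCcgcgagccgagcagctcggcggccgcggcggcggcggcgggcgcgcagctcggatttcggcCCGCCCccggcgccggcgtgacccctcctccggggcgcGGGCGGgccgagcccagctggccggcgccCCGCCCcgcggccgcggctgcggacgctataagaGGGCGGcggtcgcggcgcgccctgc
Wnt6, chr1:74771642-74771891, plus strand: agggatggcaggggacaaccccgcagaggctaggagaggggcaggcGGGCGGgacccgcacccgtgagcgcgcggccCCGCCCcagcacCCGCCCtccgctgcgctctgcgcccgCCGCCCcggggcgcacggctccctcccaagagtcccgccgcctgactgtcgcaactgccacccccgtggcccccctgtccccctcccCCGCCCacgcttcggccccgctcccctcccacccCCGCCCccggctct
Wnt11, chr7:98834862-98835111, plus strand: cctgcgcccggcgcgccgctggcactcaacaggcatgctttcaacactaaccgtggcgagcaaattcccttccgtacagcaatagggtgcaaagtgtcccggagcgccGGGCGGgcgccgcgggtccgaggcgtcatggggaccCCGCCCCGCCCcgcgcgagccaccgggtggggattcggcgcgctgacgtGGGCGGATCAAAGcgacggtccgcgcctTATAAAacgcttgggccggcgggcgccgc

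These stretches are rich in G and C, from 70.8% in Wnt11 to 87.6% in Wnt3a, against a median of 52.4% over the 32851 RefSeq mouse promoters of the same length, and they hold 28 (Wnt6) to 48 (Wnt9a) CpG dinucleotides against a median of 6. GC box letters occurred 9 times upstream of Wnt3a, 5 times upstream of Wnt9a, 6 times upstream of Wnt6 and 4 times upstream of Wnt11, some of them overlapping, and 32.7% of all promoters hold at least 1. The TCF/LEF letters occurred once upstream of Wnt11 (on the opposite strand, directly after a GC box) and upstream of none of the other 6 genes' first starts, against 14.8% of all promoters. A further start of Wnt5b, within the gene, held 1 match. TATA letters occurred once, in Wnt11 (12.4% of all promoters). In all 12 motifs were searched, and those not yet named follow with their letters. A T-box motif was searched as TCACACC, and 3.33% of all promoters hold it. The CDX motif, bound by the caudal factors, was searched as CCATAAA. A second spelling of the CDX motif, CAATAAA, was counted as the same motif, and 6.51% hold either. FOXH1 motifs were searched as AATCCACA or, in their other spelling, AATACACA, and 1.61% hold either. For SMAD proteins the palindrome GTCTAGAC was searched, held by 0.167%. The GATA motif was searched as AGATAAG, held by 2.74%. The SOX motif was searched as CATTGTT, held by 3.29%. A motif of HOX type was searched as TTTATG, held by 10.8%, and its reverse complement overlaps the first CDX spelling. The E box was searched as CAGCTG. A general homeodomain motif was searched as TAATTA, held by 4.84%. At the first starts these others matched once, an E box upstream of Wnt9a, against 13% of all promoters. The matches describe letters in these windows and nothing about binding.

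**Figure D1:**
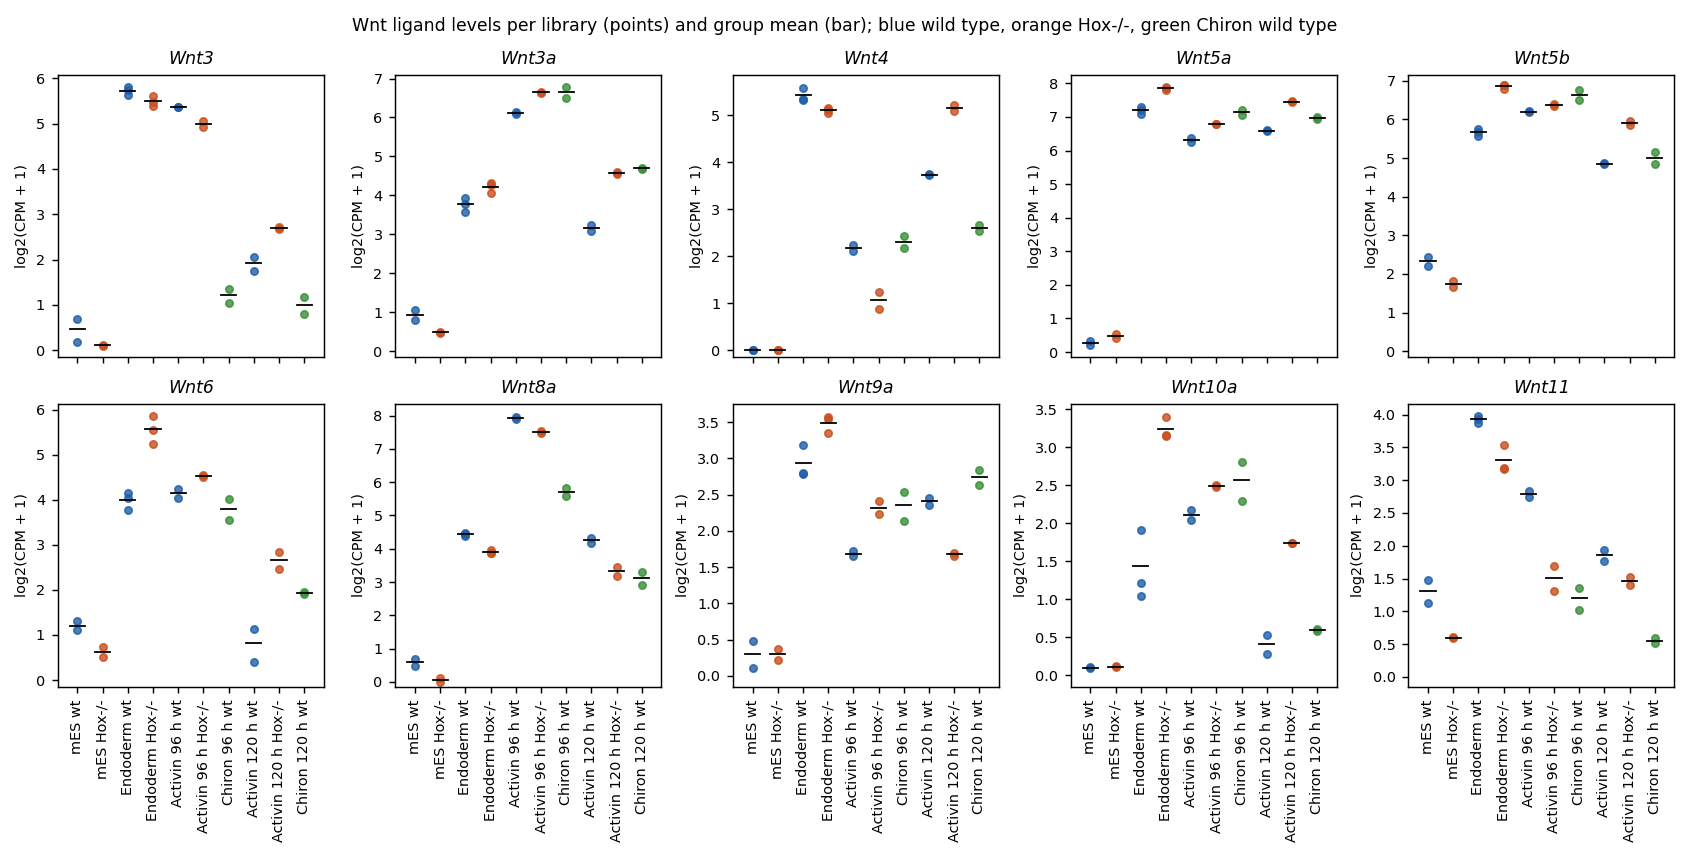
Level of each of the 10 Wnt ligand genes as log2(CPM + 1) on the vertical axis, with 1 point per library and a bar at the group mean, for 10 groups on the horizontal axis. All 10 genes sit low in mES cells (Wnt4 at 0), Wnt8a peaks in 96 h Activin A gastruloids, and in Activin A gastruloids of both genotypes Wnt4 and Wnt5a are higher at 120 h than at 96 h.

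mES cells held little ligand RNA of any kind, and differentiated cultures held a different mixture in each setting. To compare genes with each other, FPKM values, which are scaled for both depth and transcript length, were summed over 19 Wnt ligands. The sum was 4.65 ± 0.323 FPKM (SD, n = 2) in wild-type and 2.48 ± 0.0866 in Hox-/- mES cells, and 113 ± 8.47 and 168 ± 9.5 FPKM in wild-type and Hox-/- endoderm (n = 3). At 96 h it was 212 ± 5.26 in wild-type and 197 ± 2.97 in Hox-/- Activin A gastruloids and 144 ± 14.5 in Chiron gastruloids, and at 120 h 47.8 ± 0.796, 88.1 ± 0.335 and 63.6 ± 0.471 FPKM (n = 2 each). The libraries of the 2 genotypes did not overlap in any of these sums.

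Wnt8a made up 54.7% ± 0.287 of the summed FPKM in wild-type Activin A gastruloids at 96 h, 42.9% ± 0.873 in Hox-/- ones and 17.4% ± 0.82 in Chiron gastruloids (n = 2 each). In Chiron gastruloids at 96 h the largest shares were those of Wnt5b (29.5% ± 0.435) and Wnt3a (23.6% ± 0.892). By 120 h Wnt5a had the largest share in all 3 gastruloid groups, 33.4% to 35.7%. Wild-type endoderm held 26.0% Wnt5a, 19.6% Wnt5b, 14.4% Wnt3, 9.21% Wnt8a and 8.46% Wnt4. In Hox-/- endoderm Wnt5b (29.7%) and Wnt6 (12.5%) had larger shares, and Wnt3 (8.16%) and Wnt4 (4.48%) smaller ones. In mES cells Wnt5b led with 39.8% ± 6.85 in wild-type and 43.3% ± 4.26 in Hox-/- cells, followed in Hox-/- cells by a gene outside the 10, Wnt7b (20.5% ± 8.08).

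**Figure D2:**
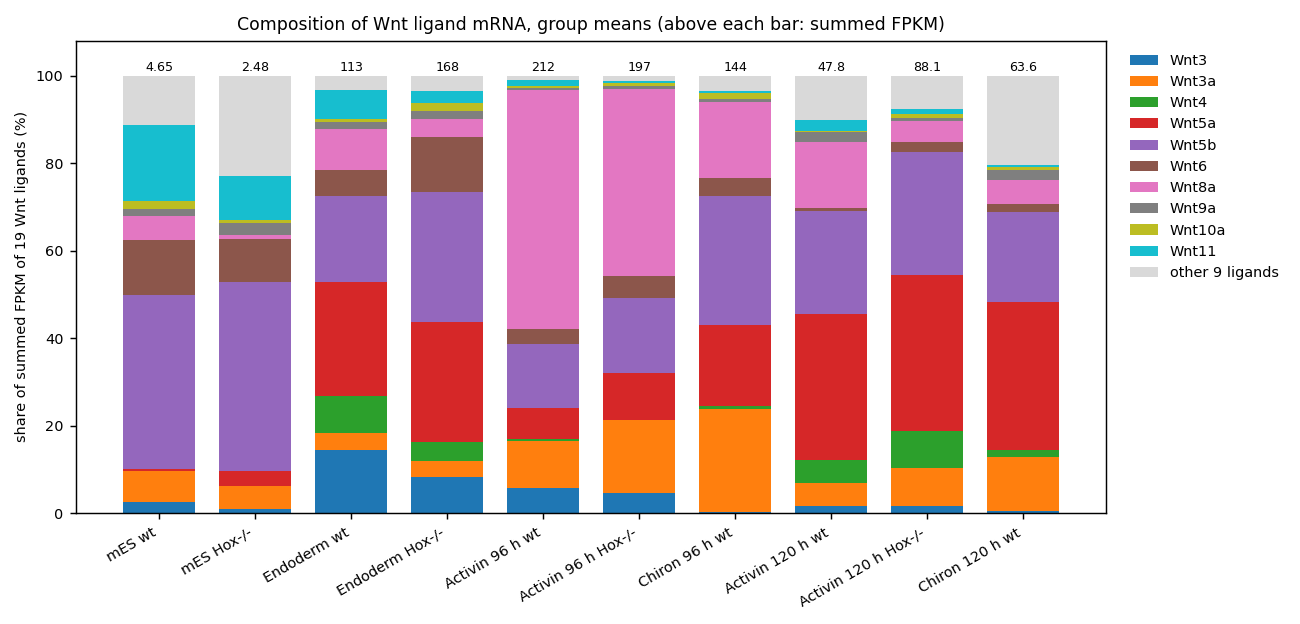
Share of each of the 10 Wnt ligands, and of the other 9 together in grey, in the summed FPKM of 19 Wnt ligands (vertical axis, percent, mean over a group's libraries) for each of 10 groups (horizontal axis), with the summed FPKM printed above each bar. Wnt8a fills 54.7% of the bar of wild-type Activin A gastruloids at 96 h, and Wnt5a 33.4% to 35.7% of the 3 bars at 120 h.

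Counts were tested with edgeR's quasi-likelihood test, with Benjamini-Hochberg adjustment over all genes of a fit, and a gene is called at an adjusted p under 0.05. Log2 fold changes below carry an approximate standard error (SE), the size of the fold change divided by the square root of the test's F statistic. Every adjusted p below comes from that test unless another is named. Fits called FPKM fits used limma on log2(FPKM + 1) and, with the lower pseudocount, on log2(FPKM + 0.1). A pseudocount makes the fold changes of low genes smaller. Where libraries of 2 groups are said not to overlap, this describes the 2 or 3 libraries of each. The share of all genes without overlap was not counted, and genes that were not called could also lie apart. In Hox-/- against wild-type endoderm, 6 of the 10 ligands were higher and 4 lower, where 23.1% of all 14975 genes tested were called higher and 23.1% lower. In Activin A gastruloids at 96 h again 6 were higher and 4 lower (22.2% of 16831 genes higher and 16.7% lower), and at 120 h 7 were higher, 2 lower and 1 not called (24.9% higher and 25.5% lower). The 2 lower at 120 h are near the share of all genes. The median log2 fold change of the 10 was 0.56 in endoderm, 0.35 at 96 h and 1.15 at 120 h, against 0.00, 0.03 and -0.02 over all genes tested. The 10 genes, like the pathway lists below, were chosen with earlier results of these data known. Their counts and medians beside those of all genes are therefore descriptions, and no test of the ligands as a set. Scaling by total counts alone in place of edgeR's TMM lowered the share of calls that were higher from 57.0% to 42.5% at 96 h and from 49.4% to 34.6% at 120 h, and moved the median of all genes at 120 h to -0.13, but it changed no ligand's call in these contrasts. In mES cells 3 of the 10 passed the filter on low counts, and all 3 were called lower (12.4% of 13631 genes higher and 10.8% lower). Those calls were fragile and are taken up with the genes.

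**Figure D3:**
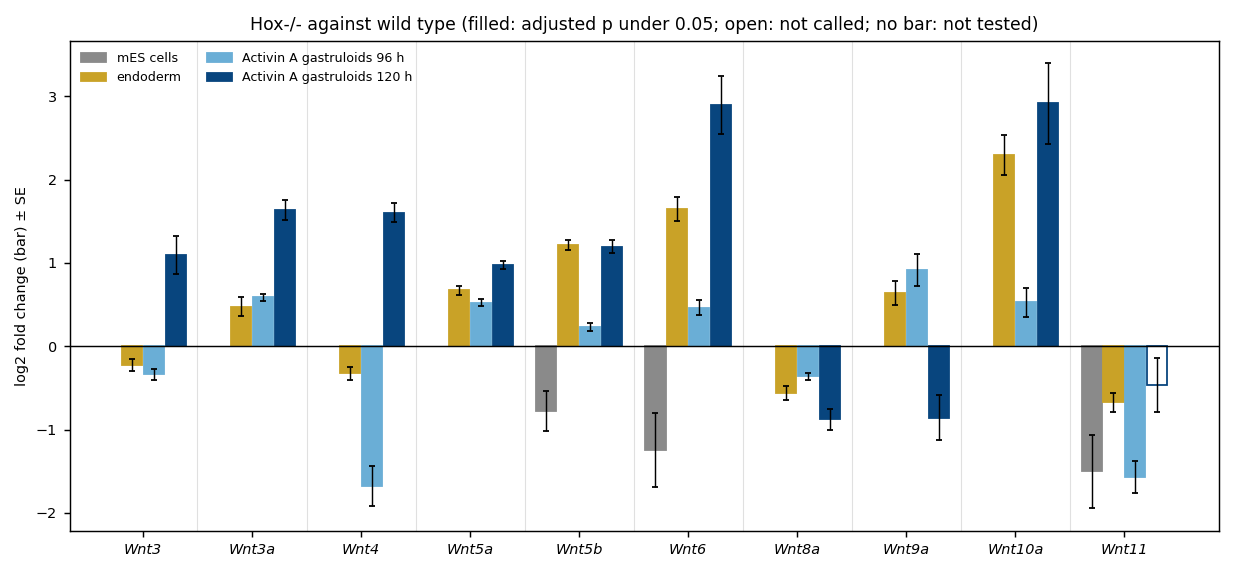
Log2 fold change of Hox-/- against wild type for each of the 10 Wnt ligands (vertical axis; bars, with lines of ± 1 SE) in mES cells, endoderm and Activin A gastruloids at 96 h and 120 h, filled where the adjusted p is under 0.05, open where it is not, and with no bar where the gene was not tested. Wnt6 and Wnt10a have the tallest bars, 2.89 and 2.91 at 120 h (the latter against 2 and 4 wild-type counts), Wnt4 changes sign between 96 h and 120 h, and Wnt8a lies below 0 in the 3 contrasts where it was tested.

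Wnt3, the streak-forming ligand, was at 40.4 and 40.4 CPM in the 2 wild-type Activin A libraries at 96 h and at 32.1 and 29.3 CPM in the Hox-/- libraries. At 120 h the wild-type libraries held 2.38 and 3.18 CPM and the Hox-/- libraries 5.43 and 5.61 CPM. The genotypes did not overlap at either time, and their order turned: Hox-/- was lower at 96 h (-0.34 on the log2 scale, SE 0.0654, adjusted p 4.04e-05) and higher at 120 h (1.10, SE 0.226, adjusted p 5.34e-05). The difference between the times was itself called (1.43, SE 0.235, adjusted p 1.88e-06). Wnt3 was highest of all in endoderm, at 48.6, 52.6 and 54.6 CPM in wild type and 43.9, 41.1 and 47.6 CPM in Hox-/- libraries, which were lower by a small margin (-0.23, SE 0.0706, adjusted p 0.0168). The 96 h call was lost in the FPKM fit with the lower pseudocount (adjusted p 0.0533), and the endoderm call without wild-type replicate 2 (adjusted p 0.055), without Hox-/- replicate 2 (0.0724) and in both FPKM fits (0.0614 and 0.0698). In Chiron gastruloids Wnt3 was at 1.07 and 1.56 CPM at 96 h and 0.754 and 1.27 CPM at 120 h.

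Wnt3a, the ligand of the caudal progenitors, was at 69.8 and 67.2 CPM in wild-type and 98.4 and 99.8 CPM in Hox-/- Activin A gastruloids at 96 h. At 120 h it was at 7.46 and 8.45 CPM in wild type against 22.4 and 23.3 CPM in Hox-/-. Hox-/- libraries lay above wild-type ones at both times, by 0.59 on the log2 scale (SE 0.0467, adjusted p 5.16e-15) at 96 h and by 1.63 (SE 0.122, adjusted p 2.95e-16) at 120 h, and the gap was larger at 120 h (difference 1.05, SE 0.134, adjusted p 9.21e-09). Endoderm gave 11.0, 12.7 and 14.4 CPM in wild type and 18.9, 15.6 and 18.1 CPM in Hox-/-, again apart (0.48, SE 0.112, adjusted p 0.00308). Chiron gastruloids held 89.3 and 109 CPM at 96 h, a range that takes in both Hox-/- Activin A libraries, and 24.6 and 25.2 CPM at 120 h, above both of them.

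Wnt8a (ENSMUSG00000012282, chr18:34542313-34548273, plus strand), a ligand of the primitive streak, had the highest level of any of the 10 in a single group: 246 and 239 CPM in wild-type Activin A gastruloids at 96 h. The Hox-/- libraries held 186 and 178 CPM (-0.36, SE 0.0397, adjusted p 1.56e-10). At 120 h wild-type libraries had fallen to 17.0 and 19.2 CPM and Hox-/- ones to 10.0 and 8.14 CPM (-0.88, SE 0.127, adjusted p 6.91e-08). In endoderm it was at 20.8, 20.05 and 21.4 CPM in wild type and 14.5, 13.6 and 13.7 CPM in Hox-/- (-0.56, SE 0.0822, adjusted p 7.19e-05). Wnt8a was thus lower in Hox-/- in every setting tested, with no overlap between libraries, opposite in direction to Wnt3a in each. In mES cells, where it did not pass the filter, 14 counts over both wild-type libraries stood against 1 over both Hox-/- libraries, a ratio of 0.0789 in CPM (95% counting interval 0.00187 to 0.518). The larger gap at 120 h (difference -0.52, SE 0.134, adjusted p 0.00146) was no longer called without Hox-/- replicate 2 at 120 h (adjusted p 0.0663) or in either FPKM fit.

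Among the ligands of β-catenin-independent signalling, Wnt5a and Wnt5b were abundant everywhere outside mES cells and higher in Hox-/- cultures. Wnt5a was at 134, 147 and 155 CPM in wild-type and 233, 234 and 223 CPM in Hox-/- endoderm (0.67, SE 0.0563, adjusted p 3.29e-07). In Activin A gastruloids it went from 82.0 and 75.4 to 109 and 109 CPM at 96 h (0.52, SE 0.0454, adjusted p 8.35e-14), and from 95.0 and 96.3 to 174 and 175 CPM at 120 h (0.98, SE 0.0507, adjusted p 2.69e-22). The genotypes did not overlap in any of the 3 settings, and the gap was larger at 120 h than at 96 h (difference 0.45, SE 0.0684, adjusted p 3.64e-07).

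Wnt5b, its close relative, was at 46.9, 49.7 and 52.5 CPM in wild-type and 118, 109 and 117 CPM in Hox-/- endoderm (1.21, SE 0.0601, adjusted p 1.36e-09). At 96 h the Activin A libraries differed little, with 72.8 and 71.6 CPM in wild type and 80.4 and 82.9 CPM in Hox-/- (0.23, SE 0.0475, adjusted p 0.000112), a call that neither FPKM fit made. At 120 h they stood at 27.6 and 28.3 against 57.3 and 61.3 CPM (1.19, SE 0.0755, adjusted p 5.78e-19), and the gap was larger than at 96 h (difference 0.97, SE 0.09, adjusted p 1.12e-12). In mES cells, where Wnt5b was the most abundant of the 10, the direction was the other way: 4.45 and 3.65 CPM in wild type and 2.54 and 2.18 CPM in Hox-/- (-0.78, SE 0.24, adjusted p 0.0156). That mES call was not made by DESeq2 (adjusted p 0.225), by either FPKM fit, or without wild-type replicate 1 (0.238) or Hox-/- replicate 2 (0.0759).

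Wnt11, a ligand known for guiding cell movement, was lower in Hox-/- libraries. Endoderm held 13.6, 14.8 and 14.2 CPM in wild type and 8.01, 8.12 and 10.6 CPM in Hox-/- (-0.67, SE 0.117, adjusted p 3.32e-04), and Activin A gastruloids at 96 h held 5.69 and 6.12 against 2.24 and 1.47 CPM (-1.57, SE 0.197, adjusted p 4.52e-09). At 120 h the values were 2.81 and 2.42 against 1.64 and 1.87 CPM, a difference that did not pass the test (-0.47, SE 0.321, adjusted p 0.234) although the libraries did not overlap. The difference between the times (1.10, SE 0.387, adjusted p 0.0203) was lost in DESeq2 (adjusted p 0.0901), without Hox-/- replicate 2 at either time (0.0723 at 96 h and 0.102 at 120 h), and without wild-type replicate 2 at 120 h (0.0708). In mES cells, 41 counts over both wild-type libraries stood against 13 over both Hox-/- libraries, a ratio of 0.350 in CPM (95% counting interval 0.172 to 0.667), and the call (adjusted p 0.0119) rose to 0.0573 or more when either Hox-/- library or wild-type replicate 2 was left out.

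Wnt4, which directs kidney tubule and gonad formation, made the widest turn between the times. It was at 3.69 and 3.29 CPM in wild-type and 0.842 and 1.34 CPM in Hox-/- Activin A gastruloids at 96 h (-1.67, SE 0.238, adjusted p 9.46e-08). At 120 h wild-type libraries held 12.4 and 12.2 CPM and Hox-/- libraries 36.2 and 32.8 CPM (1.60, SE 0.114, adjusted p 5.44e-17). The Hox-/- libraries thus went from below to above the wild-type ones, and the interaction of genotype and time was 3.27 (SE 0.258, adjusted p 4.95e-15). Wnt4 was high in endoderm of both genotypes, at 39.2, 39.4 and 46.9 CPM in wild type and 34.3, 32.1 and 33.3 CPM in Hox-/- (-0.32, SE 0.0781, adjusted p 0.0037), and at 0 counts in all 4 mES libraries.

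Wnt6 and Wnt10a, the neighbours on chromosome 1, both known from epithelia, had the largest genotype differences of the 10 in endoderm and at 120 h. Wnt6 was at 15.5, 12.7 and 16.7 CPM in wild-type and 56.8, 36.6 and 45.7 CPM in Hox-/- endoderm (1.65, SE 0.144, adjusted p 4.94e-07). The 96 h gastruloids held 17.9 and 15.5 against 21.8 and 22.5 CPM (0.46, SE 0.092, adjusted p 5.22e-05), and the 120 h ones 0.324 and 1.21 against 4.48 and 6.17 CPM (2.89, SE 0.344, adjusted p 5.89e-10). The wild-type libraries at 120 h held 3 and 11 counts of Wnt6, and the 120 h difference was 2.24 without wild-type replicate 1 and 4.10 without replicate 2. The libraries did not overlap in these 3 settings, and the 96 h call was not made in either FPKM fit. In mES cells it was at 1.46 and 1.17 CPM in wild type and 0.672 and 0.42 CPM in Hox-/- (-1.25, SE 0.445, adjusted p 0.0384; 14 against 37 counts over both libraries, a ratio of 0.418 in CPM with a 95% counting interval of 0.209 to 0.791), a call lost whichever of the 4 libraries was left out (adjusted p 0.0617 to 0.339).

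Wnt10a was at 1.05, 1.32 and 2.77 CPM in wild-type and 9.54, 7.81 and 7.94 CPM in Hox-/- endoderm (2.30, SE 0.238, adjusted p 2.68e-06). At 120 h the wild-type Activin A libraries held 2 and 4 counts and the Hox-/- libraries 27 and 25 counts, a ratio of 7.14 in CPM with a 95% interval of 3.07 to 20.3 that covers counting error only. At 96 h it was at 3.11 and 3.53 against 4.58 and 4.68 CPM (0.53, SE 0.178, adjusted p 0.0156), a call lost in DESeq2 (adjusted p 0.224), with counts thinned to the smallest library (0.12), in the FPKM fit with the lower pseudocount (0.257) and without replicate 1 of either genotype (0.062 for Hox-/-, 0.11 for wild type). The genotype gap was larger at 120 h than at 96 h for both genes, by 2.43 (SE 0.37, adjusted p 4.69e-07, but 0.0909 in the FPKM fit with the lower pseudocount) for Wnt6 and 2.39 (SE 0.54, adjusted p 3.28e-04) for Wnt10a. The Wnt6 value was 1.78 without wild-type replicate 1 at 120 h and 3.64 without replicate 2, and the Wnt10a value rests on the 2 and 4 wild-type counts at 120 h and is no measure of its size. Over the 10 group means of log2(CPM + 1), Wnt6 and Wnt10a had a Pearson r of 0.945, and 0.915 over the 8 groups without mES cells. The other neighbours, Wnt3a and Wnt9a, had 0.605 and -0.407. Such values were not particular to neighbours. Without mES cells Wnt5b, on another chromosome, had 0.993 with Wnt10a and 0.894 with Wnt6, and over all 10 groups Wnt5a and Wnt5b had 0.939. These are descriptions over groups that share genotypes and depth.

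Wnt9a, a ligand of joint formation, was a low-level gene in all settings. Endoderm held 5.92, 5.87 and 8.1 CPM in wild type and 10.9, 9.23 and 10.6 CPM in Hox-/- (0.64, SE 0.14, adjusted p 0.00188). In Activin A gastruloids at 96 h the values were 2.31 and 2.13 against 4.3 and 3.68 CPM (0.91, SE 0.197, adjusted p 1.72e-04), and at 120 h they were 4.11 and 4.5 against 2.24 and 2.15 CPM (-0.86, SE 0.267, adjusted p 0.00608). The order of the genotypes turned with no overlap at either time, in the direction opposite to Wnt3 and Wnt4, and the interaction was -1.77 (SE 0.331, adjusted p 2.07e-05).

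Over all 10 ligands, the interaction of genotype and time was called higher for 8 and lower for 2 (Wnt8a and Wnt9a), where 18.7% of all genes were called higher and 20.2% lower. The 2 lower are near that share. The median interaction of the 10 was 1.07 against -0.06 for all genes tested. Because the 10 were chosen with earlier results of these data known, these values only describe them. Scaling by total counts alone lowered the share of these calls that were higher from 48.0% to 38.7% over all genes, and it moved no ligand across the threshold. Between 96 h and 120 h in wild-type Activin A gastruloids 7 ligands fell and 3 rose (37.2% of all genes higher and 37.8% lower). The 3 that rose are near the share of all genes. The log2 fold change was -4.51 (SE 0.243) for Wnt6 (-3.85 and -5.71 without replicates 1 and 2 at 120 h), -3.93 (SE 0.135) for Wnt3 and -3.82 (SE 0.0657) for Wnt8a, while Wnt4 rose by 1.75 (SE 0.155), Wnt9a by 0.88 (SE 0.229) and Wnt5a by 0.21 (SE 0.0517), the last not called in either FPKM fit. In Hox-/- Activin A gastruloids 7 fell, 2 rose and 1 was not called (34.9% of all genes higher and 37.6% lower): Wnt4 rose by 5.02 (SE 0.16) and Wnt5a by 0.66 (SE 0.0453), and Wnt11 was the one not called (-0.15, SE 0.299).

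The wild-type gastruloids were also compared between treatments, where the same wild-type Activin A libraries stand against Chiron libraries. The 2 sets of contrasts therefore share samples, and their values are given side by side only. At 96 h, 3 ligands were higher with Activin A, 5 lower and 2 not called (31.3% of 17305 genes higher and 30.2% lower), and at 120 h 4 were higher, 3 lower and 3 not called (20.3% higher and 21.6% lower). The 3 higher at 96 h and the 3 lower at 120 h are near the shares of all genes. The endoderm markers summed to 527 to 591 CPM with Activin A and 163 to 166 CPM with Chiron at 96 h, and to 532 to 543 and 59.3 to 64.5 CPM at 120 h. The presomitic and somitic markers summed to 131 to 138 and 675 to 793 CPM at 96 h, and to 402 to 409 and 729 to 779 CPM at 120 h. Pluripotency markers summed to 1612 to 1626 and 215 to 292 CPM at 96 h (3 of 7 called higher with Activin A and 2 lower). At 120 h their sums were 85.5 to 86.2 and 288 to 297 CPM (6 of 7 called lower). For the primitive streak and caudal markers the sums were 2966 to 3074 and 1376 to 1590 CPM at 96 h, and 622.8 to 623.3 and 518 to 570 CPM at 120 h. The part of these lists in the ligand differences was not tested.

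**Figure D4:**
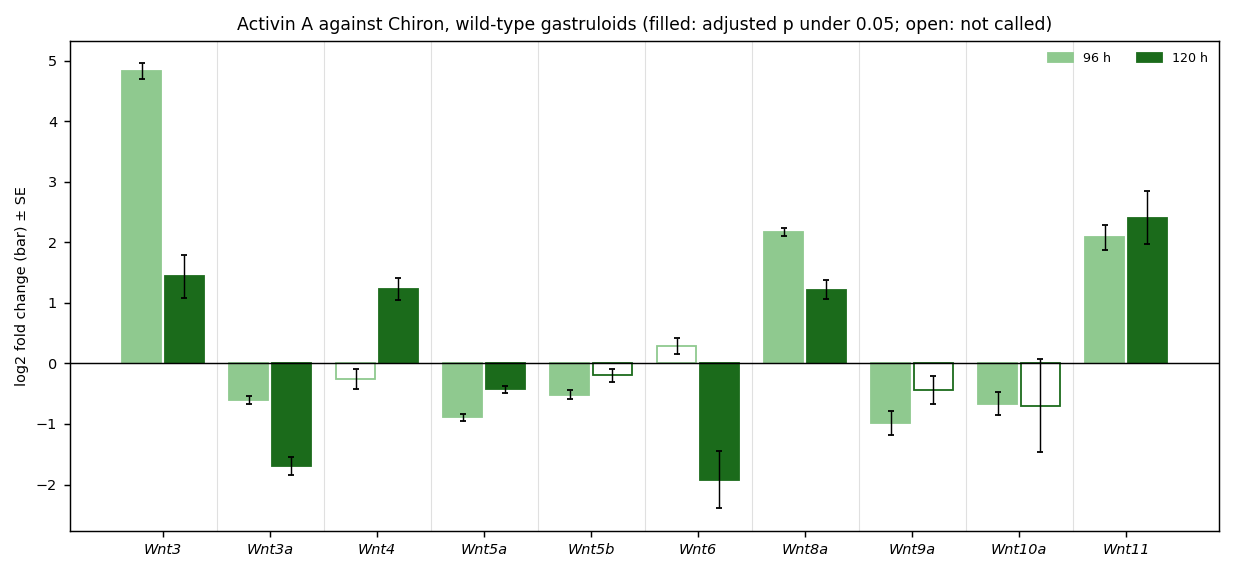
Log2 fold change of Activin A against Chiron gastruloids of wild-type cells for the 10 Wnt ligands (vertical axis; bars, with lines of ± 1 SE) at 96 h and 120 h, filled where the adjusted p is under 0.05. Wnt3, Wnt8a and Wnt11 stand above 0 at both times, and Wnt3 drops from 4.83 to 1.44.

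At 96 h Wnt3 had the largest treatment difference of the 10, with 40.4 and 40.4 CPM in Activin A against 1.07 and 1.56 CPM in Chiron gastruloids (4.83, SE 0.135, adjusted p 2.09e-19). At 120 h the values were 2.38 and 3.18 against 0.754 and 1.27 CPM (1.44, SE 0.35, adjusted p 0.00189), a call lost without Chiron replicate 1 (adjusted p 0.058). Wnt8a was at 246 and 239 against 46.8 and 55.7 CPM at 96 h (2.17, SE 0.0673, adjusted p 1.53e-18) and at 17.0 and 19.2 against 6.45 and 8.8 CPM at 120 h (1.22, SE 0.155, adjusted p 9.3e-07). Wnt11 was at 5.69 and 6.12 against 1.02 and 1.56 CPM at 96 h (2.08, SE 0.203, adjusted p 4.69e-09; 2.696 with thinned counts), and at 120 h 48 counts over both Activin A libraries stood against 10 over both Chiron libraries, a ratio of 5.58 in CPM (95% counting interval 2.79 to 12.4). These 3 ligands were higher with Activin A at both times. Their libraries did not overlap, but at 120 h neither did those of Wnt9a and Wnt10a, which were not called.

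Wnt3a and Wnt5a were lower with Activin A at both times. For Wnt3a the log2 fold change was -0.60 (SE 0.0702, adjusted p 8.75e-08) at 96 h and -1.70 (SE 0.148, adjusted p 1.94e-09) at 120 h. For Wnt5a, with 146 and 133 CPM in Chiron libraries at 96 h and 126 and 122 CPM at 120 h, it was -0.89 (SE 0.0566, adjusted p 2.18e-12) and -0.43 (SE 0.0644, adjusted p 9.02e-06). Wnt4 did not pass at 96 h, when Chiron libraries at 3.5 and 4.34 CPM overlapped the Activin A ones, and was higher with Activin A at 120 h, at 12.4 and 12.2 against 5.28 and 4.77 CPM (1.23, SE 0.177, adjusted p 5.09e-06). Wnt6 was not called at 96 h (0.28, SE 0.13, adjusted p 0.0626; called without a filter, with RLE or total-count scaling, and without Activin A or Chiron replicate 2, with adjusted p of 0.000101 to 0.048) and was lower at 120 h, at 0.324 and 1.21 against 2.77 and 2.86 CPM (-1.92, SE 0.474, adjusted p 0.00213), a call lost without Activin A replicate 1 (-1.26, adjusted p 0.0645; -3.14 without replicate 2) and in the FPKM fit with the lower pseudocount (0.0541).

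The remaining ligands were called lower with Activin A at 96 h and not called at 120 h. At 96 h Wnt5b stood at 72.8 and 71.6 against 89.8 and 107 CPM (-0.51, SE 0.0703, adjusted p 1.06e-06), Wnt9a at 2.31 and 2.13 against 3.41 and 4.82 CPM (-0.98, SE 0.198, adjusted p 1.64e-04) and Wnt10a at 3.11 and 3.53 against 3.89 and 6.0 CPM (-0.66, SE 0.193, adjusted p 0.00476). At 120 h their values were on the same side: -0.20 (SE 0.111, adjusted p 0.165) for Wnt5b, with overlapping libraries, and -0.44 (SE 0.232, adjusted p 0.139) for Wnt9a, at 4.11 and 4.5 against 5.2 and 6.15 CPM. Wnt10a had 6 counts over both Activin A and 11 over both Chiron libraries at 120 h, a ratio of 0.635 in CPM (95% counting interval 0.193 to 1.87). The 96 h call of Wnt10a was lost in DESeq2 (adjusted p 0.147), with thinned counts (0.0859), in both FPKM fits and without Chiron replicate 2 (0.323) or Activin A replicate 1 (0.066). The treatment by time interaction was called higher for 2 ligands (Wnt4 and Wnt5a) and lower for 4 (Wnt3, Wnt3a, Wnt6 and Wnt8a), where 21.7% of all genes were called higher and 18% lower. The 2 higher are near the share of all genes. The Wnt6 interaction, -2.20, was -1.53 and -3.41 without Activin A replicates 1 and 2 at 120 h. The Wnt5a and Wnt6 interactions were not called in the FPKM fit with the lower pseudocount (adjusted p 0.0548 and 0.093). Between 96 h and 120 h in Chiron gastruloids 7 ligands fell and 3 were not called, Wnt3, Wnt4 and Wnt9a (28.5% of all genes higher and 33.2% lower). The log2 fold change was -2.88 (SE 0.116) for Wnt8a. For Wnt10a, 253 counts over both libraries at 96 h stood against 11 at 120 h, a ratio of 0.1005 in CPM (95% counting interval 0.0495 to 0.183). The Wnt11 call was lost with thinned counts (adjusted p 0.238) and in both FPKM fits (0.0538 and 0.0905).

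From mES cells to endoderm all 10 ligands were called higher in both genotypes (41.6% of 16251 genes higher and 38.3% lower in wild type, 42.7% and 37.9% in Hox-/-). Nothing is read from that count, because 9 of the 10 had fewer than 10 counts in at least 1 mES library, and of these only Wnt6 and Wnt11 passed the filter on low counts in mES cells alone. Wnt4, at 0 in mES cells, was at least 194-fold higher in wild-type and at least 140-fold higher in Hox-/- endoderm, reckoned against a floor of 3 counts per library. Wnt5a went from 6 counts over both wild-type mES libraries to 6016 over the 3 endoderm libraries, and in Hox-/- cells from 10 to 11463. Wnt5b, the 1 ligand with at least 10 counts in every library, rose by a log2 fold change of 3.49 (SE 0.112, adjusted p 1.81e-16) in wild type and 5.51 (SE 0.117, adjusted p 2.42e-19) in Hox-/-. Its rise was larger in Hox-/- (interaction 2.02, SE 0.22, adjusted p 1.27e-06). That of Wnt6 (2.92, SE 0.631, adjusted p 0.00197) rests on 14 counts over both Hox-/- mES libraries. Over all genes 11.6% had an interaction called higher and 12.5% lower, and no count of ligands is read against those shares. Wnt3a (1.67, SE 0.523, adjusted p 0.025) and Wnt8a (2.88, SE 0.878, adjusted p 0.0233) entered the fit through endoderm alone, with 10 counts and 1 count over both Hox-/- mES libraries, and nothing is read from their values. Wnt3a's was lost without either Hox-/- mES library or wild-type mES replicate 2 (adjusted p 0.0742 to 0.16), and Wnt8a's without Hox-/- or wild-type mES replicate 2 (0.199 and 0.12) and in DESeq2 (0.126).

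Other genes of the pathway were counted by role from lists, again for Hox-/- against wild type, and the counts stand beside the shares of all genes called higher and lower: 12.4% and 10.8% in mES cells, 23.1% and 23.1% in endoderm, 22.2% and 16.7% at 96 h, and 24.9% and 25.5% at 120 h. Of 10 genes known as Wnt targets, 9 were higher and none lower in endoderm, 7 higher and none lower in Activin A gastruloids at 96 h, and 7 higher and 1 lower at 120 h. In mES cells 1 of 9 tested was higher, near the share of all genes, and 5 lower. Cdx1, a caudal transcription factor, was at 579 ± 30.6 in Hox-/- and 197 ± 18.2 CPM in wild type at 96 h, and 142 ± 6.12 and 12.1 ± 1.87 CPM at 120 h (n = 2 each). Apcdd1, a membrane inhibitor of the pathway, was at 209 ± 9.42 against 64.2 ± 8.04 CPM in endoderm (n = 3 each) and 100 ± 4.58 against 18.7 ± 1.18 CPM at 120 h. Both lie on the chromosome of Wnt8a, and of the genes tested within 500 kb of Cdx1, 11 of 12 in mES cells, 8 of 15 in endoderm, 12 of 15 at 96 h and 10 of 15 at 120 h were higher too. Over all genes 12.4%, 23.1%, 22.2% and 24.9% were higher in these settings. Around the ligands at 120 h, when 25.5% of all genes were lower, neighbouring genes ran both with and against the ligand. Around Wnt8a, itself lower, 8 of 20 were higher and none lower. Around Wnt3a, itself higher, 4 of 24 were higher and 12 lower, and around its neighbour Wnt9a, itself lower, 4 of 27 were higher and 13 lower. Around Wnt6 and Wnt10a, both higher, 14 of 34 and 13 of 32 were higher and 7 lower in each of these overlapping windows. Around Wnt11, not called, 7 of 11 were higher and none lower, and the windows of the other 4 ligands held 2 to 10 tested genes. At 96 h the Wnt6 window had 13 of 34 higher and 3 lower.

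**Figure D5:**
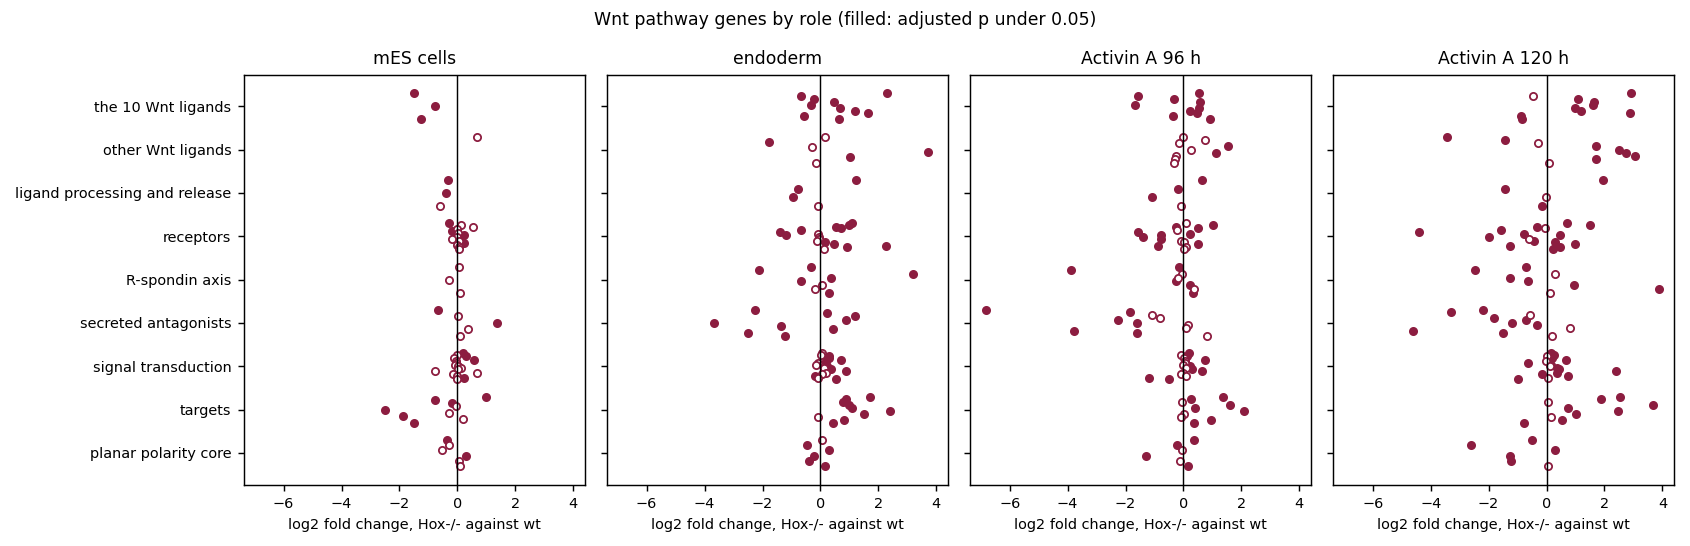
Log2 fold change of Hox-/- against wild type (horizontal axis) for each tested gene of the Wnt pathway, 1 point per gene, arranged by role in rows, in 4 panels for mES cells, endoderm and Activin A gastruloids at 96 h and 120 h. Filled points have an adjusted p under 0.05. The targets lie mostly above 0 outside mES cells, and the secreted antagonists mostly below 0 in the gastruloids.

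Secreted antagonists, which bind the ligands or their receptors outside the cell, went the other way in gastruloids. Of 11 tested, 6 were lower and none higher at 96 h and 8 lower and none higher at 120 h, while in endoderm 4 of 9 were higher and 5 lower. Cer1, which the list includes but which is known in mouse as an antagonist of Nodal and BMP made by anterior endoderm, was at 1.22 ± 0.122 against 147 ± 14.5 CPM at 96 h. Sfrp5 was at 1.68 ± 0.54 against 44.2 ± 1.64 CPM and Dkk1 at 5.25 ± 1.47 against 56.5 ± 0.623 CPM at 120 h (n = 2 each). Some of these genes are themselves expressed in endoderm, whose markers moved with them, and that part was not tested.

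Of 16 receptor genes, 8 were higher and 3 lower in endoderm, 4 higher and 6 lower at 96 h, and 7 higher and 7 lower at 120 h. The 3 lower in endoderm and the 4 higher at 96 h are near the shares of all genes. Fzd5, a Frizzled receptor, was at 5.53 ± 0.509 in Hox-/- and 128 ± 5.22 CPM in wild type at 120 h, and Fzd10 was at 498 ± 15.8 against 256 ± 16.7 CPM at 96 h. Of 4 genes that process or release ligands, 1 was higher, near the share of all genes, and 2 lower in endoderm and in gastruloids at both times. Notum, which removes the lipid from Wnt proteins and is itself induced by the pathway, was at 92.1 ± 4.23 against 39.9 ± 3.93 CPM in endoderm (n = 3 each), and Porcn, which attaches it, at 17.9 ± 0.14 against 52.3 ± 0.962 CPM at 120 h (n = 2 each).

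Among 17 signal transduction genes, 8 were higher and 1 lower in endoderm, 6 higher and 2 lower at 96 h, and 10 higher and 3 lower at 120 h. The lower counts are near or below the shares of all genes. Lef1, a nuclear partner of β-catenin, was at 413 ± 2.1 against 85.7 ± 3.14 CPM at 120 h. Of 6 planar polarity genes, 2 were higher and 3 lower in endoderm, 2 higher and 2 lower at 96 h, and 1 higher and 4 lower at 120 h. The higher counts of this list are near the shares of all genes. In the R-spondin axis 3 of 8 tested were higher and 3 lower in endoderm, 2 higher and 3 lower at 96 h, and 2 higher and 4 lower at 120 h. The 2 higher at each of these times are near the shares of all genes. The receptor Lgr5 was at 1.8 ± 0.103 against 10.9 ± 1.73 CPM at 120 h. Of the 9 other Wnt ligands, 2 were higher and 1 lower of 6 tested in endoderm, 2 higher and none lower at 96 h, and 5 higher and 2 lower at 120 h. The 1 lower in endoderm, the 2 higher at 96 h and the 2 lower at 120 h are near the shares of all genes. Wnt7a was higher in endoderm at 7.95 ± 1.66 against 0.601 ± 0.0989 CPM (n = 3 each). Between treatments, with Activin A against Chiron, 2 of 10 targets were higher and 8 lower at 96 h and 1 higher and 8 lower at 120 h. Of 11 antagonists 4 were higher and 3 lower at 96 h and 8 higher and 1 lower at 120 h. Over all genes 31.3% were higher and 30.2% lower at 96 h, and 20.3% higher and 21.6% lower at 120 h. The antagonist counts at 96 h are near those shares.

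The genes whose pattern over the 10 group means of log2(CPM + 1) was most like each ligand's, among 11718 genes with at least 10 CPM in some group, were Gbp2 and Psmb8 for Wnt3 (r = 0.986 for both), Rac1 for Wnt3a (0.989), Zfp592 for Wnt4 (0.992), Ube2e2 for Wnt5a (0.998), Prkar1a for Wnt5b (0.987) and Gabarapl1 for Wnt8a (0.982). Fkbp1a was the nearest for both Wnt6 (0.963) and Wnt10a (0.957), and Parva and Arhgap22 were nearest to Wnt9a (0.984) and Wnt11 (0.961). With 10 points that all share the step from mES cells to the other cultures, these values are a description.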

How the data were processed

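Poly(A)-selected RNA from 22 libraries was prepared with a stranded kit, as the labels' protocols state. The authors deposited whole-number counts per gene. The authors also deposited FPKM values, with each gene's symbol and position. The submitters' processing notes name cutadapt 1.16, STAR, Cufflinks 2.2.1 and build mm10, and whether counting used strand is not given in the sources used here. Gene positions matched GENCODE models of the GRCm38 build and are 1-based, and promoter sequences come from RefSeq.

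The main test was edgeR (4.0.16, in R 4.3.3; filterByExpr, TMM, 1 coefficient per group, quasi-likelihood, Benjamini-Hochberg), with the mES and endoderm tables fitted separately, each gastruloid table over its 4 groups, and differentiation in 1 joint fit of mES and endoderm libraries; 14 contrasts were tested. Alternatives were RLE factors, total counts, DESeq2 1.42.0, no filter, a minimum of 10 counts per library, the replicate number as a block, fits of 2 groups, leaving out each library, thinned counts, and limma 3.58.1 on log2(FPKM + 1) and log2(FPKM + 0.1) with at least 1 FPKM in 2 libraries. The FPKM fits were made within a table only. On simulated counts with 200 changed genes, edgeR recovered 95% to 100% of changed genes by comparison and size. Of its calls, 3.86% (Activin A gastruloids, 96 h) to 7.48% (differentiation, wild type) were false, above 5% in 4 of the 5 comparisons simulated. Changed genes were drawn only from genes with counts well above the floor, with log2 fold changes of 1 or 2 in either direction. All genes of a fit were given the same spread. Recovery of genes with few counts, or of changes under 2-fold, was not simulated.

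The 10 genes, the pathway and marker lists and the tests were chosen with earlier results of these data known. All 10 genes were named in the contrasts, and of each pathway list at most 3 genes per contrast were eligible, by size among calls of at least 2-fold without overlap between libraries. Of those, a selection is printed. For genes with few counts, ratios with exact counting intervals are given in place of or beside fold changes in most comparisons where no library of a group exceeded 10 counts, a limit set after counts were seen, as was the 500 kb window around genes.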

Additional observations from a re-analysis of the deposited data

Results flagged for a closer look

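The results below differ between times, treatments or genotypes by an interaction test (edgeR's quasi-likelihood test, Benjamini-Hochberg adjustment over all genes), given as differences of log2 fold changes. Between 96 h and 120 h, the Hox-/- effect in Activin A gastruloids shifted by 3.27 for Wnt4, 2.43 for Wnt6, 2.39 for Wnt10a, 1.43 for Wnt3, 1.10 for Wnt11, 1.05 for Wnt3a, 0.97 for Wnt5b and 0.45 for Wnt5a, and by -0.52 for Wnt8a and -1.77 for Wnt9a. For Wnt3, Wnt4 and Wnt9a the direction of the genotype effect turned, with libraries apart at both times. At 120 h the libraries of Wnt11, whose genotype effect was not called, were apart as well. The Wnt10a value rests on 2 and 4 wild-type counts at 120 h. The depth of the libraries also differed between the times.

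The Activin A effect against Chiron shifted between 96 h and 120 h by -3.39 for Wnt3, -2.20 for Wnt6, -1.09 for Wnt3a, -0.96 for Wnt8a, 1.48 for Wnt4 and 0.46 for Wnt5a. The rise from mES cells to endoderm was larger in Hox-/- by 2.92 for Wnt6, 2.88 for Wnt8a, 2.02 for Wnt5b and 1.67 for Wnt3a, but nothing is read from Wnt8a and Wnt3a, which entered that fit through endoderm alone, rest on 1 count and 10 counts over both Hox-/- mES libraries, and lost the call without single mES libraries (adjusted p 0.12 to 0.199 for Wnt8a and 0.0742 to 0.16 for Wnt3a).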

How the results depend on the processing

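Over 133 ligand results, 2214 values were recomputed under the alternatives: 2132 kept their direction and side of the threshold, 56 lost their call, 12 gained one and 14 changed sign. The sign changes concern results that were not called: Wnt11 over time in Hox-/- gastruloids (0.086 and 0.043 in the FPKM fits with pseudocounts 0.1 and 1, -0.38 to 0.23 without a library), the treatment by time interaction of Wnt10a (0.019 with pseudocount 1, -0.60 to 0.40 without a library) and of Wnt11 (-0.35 thinned, -0.34 and -0.46 in the FPKM fits, -0.064 to 0.54 without a library), and the genotype by differentiation interaction of Wnt5a (-0.63 to 0.14 without a library) and Wnt9a (-0.87 to 1.40 without a library).

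In mES cells the number of ligands called went from 3 to 4 with no filter on low counts (Wnt8a lower, -3.40, adjusted p 0.0272, on 14 counts against 1), to 0 in DESeq2 (where 2 of them had no adjusted p) and in both FPKM fits (which left 1 to test), to between 0 and 1 without a library, and to 1 with at least 10 counts in every library, which left 1 to test. That filter also left fewer ligands to test elsewhere, calling 5 and 4 for treatment at 96 h and 120 h, 4 for time in Chiron gastruloids, and 1 in each of the 3 differentiation contrasts. The genotype by differentiation count was 2 to 4 without a library, and the FPKM fit with pseudocount 0.1 called 6 ligands for genotype at 96 h.

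Counts of all genes called moved by over 1.5 times as follows, and the cause was not tested. For genotype in mES cells 3168 became 1098 in DESeq2, 210 and 111 in the FPKM fits (pseudocounts 1 and 0.1) and 1477 to 3372 without a library, 1477 and 1690 without wild-type replicates 1 and 2. For genotype at 96 h 6546 became 3647 in DESeq2 and 2801 and 2425 in the FPKM fits, for genotype by time 6544 became 4301 and 3924, and for treatment at 96 h 10655 became 6871 and 6268. With pseudocount 0.1, genotype in endoderm went from 6922 to 4537, treatment at 120 h from 7249 to 4681 and treatment by time from 6861 to 4257. Scaling by total counts moved the median of all genes between mES cells and endoderm from 0.07 to 0.18 in wild type.

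Same-numbered replicates showed little joint deviation from their group means (correlations from -0.07 to 0.106). In groups of 2 libraries both numbers give the same correlation, so this check cannot tell whether the libraries were paired. With the replicate number as a block, 3793 genes in place of 3168 were called in mES cells and 10725 in place of 10655 for treatment at 96 h, and 2 ligand results changed, both newly called: Wnt6 for treatment at 96 h (0.29, adjusted p 0.0487) and Wnt5b for treatment by time (0.31, adjusted p 0.0409).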
